A study of Homo sapiens with 20 samples.

Results

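The 5 genes that encode the NF-κB transcription factor subunits are *NFKB1*, *NFKB2*, *REL*, *RELA* and *RELB*. They were chosen by symbol from the 58233 Ensembl identifiers counted in 20 RNA-seq libraries of lung cancer cell lines, as a gene family with no cut on a measured value though with earlier results of these data known, and all 5 were found and passed the filter on low counts in every line. The series asks how cancer cells respond to loss of *ADAR*, which encodes the RNA-editing enzyme ADAR1. Cells of each line received a lentivirus carrying Cas9 and an sgRNA against *GFP*, a sequence the cells lack, or against *ADAR*. HCC366 (lung adenosquamous carcinoma), NCI-H1650 (lung adenocarcinoma) and NCI-H196 (variant small cell lung cancer) were left untreated, and their RNA was taken 5 days after transduction. These are the lines that the study names as dependent on ADAR1. A549 (lung adenocarcinoma), which tolerates loss of *ADAR*, carried the same 2 kinds of sgRNA and received vehicle or 10 ng/mL interferon-β (IFN-β) for 24 h. Each of the 10 conditions had 2 libraries, which differ in the sgRNA (sg1 and sg2), so that SDs and p values below measure the spread between sgRNA libraries and not between repeated cultures. All cells carried Cas9 and an sgRNA, controls included, and the transduced populations can hold unedited cells beside edited ones.

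NF-κB acts as homodimers and heterodimers of these subunits, which share a DNA-binding Rel homology domain. *RELA*, *REL* and *RELB* encode the proteins with a transactivation domain, p65, c-Rel and RelB. *NFKB1* and *NFKB2* encode the precursors p105 and p100, which are processed to the DNA-binding subunits p50 and p52 and which, unprocessed, hold their partners in the cytoplasm. In the canonical branch, inflammatory signals lead to the degradation of IκB proteins and release p65-p50, whereas the non-canonical branch processes p100 and releases RelB-p52. Several subunit genes are themselves known NF-κB targets, and *RELA* is generally regarded as little induced by the pathway. Activity is controlled mainly by localization and processing of the proteins, which mRNA levels do not show.

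The libraries held between 62679 and 19520189 reads on genes, with a median of 6411279. A pair of libraries stood apart. NCI-H196 GFP sg2 was the shallowest, with between 2 and 8 reads on each subunit. In HCC366 ADAR sg2, 85.6% of alignments were not unique, against 22.5% to 59.1% in the other 19 libraries, and 53.0% of the variance of its log ratios to the mean of the line followed a smooth curve of GC content and length. *ADAR* itself was lower with the *ADAR* sgRNAs in all 5 matched settings, with log2 fold changes of −1.29 in NCI-H1650, −1.08 and −0.60 in A549 with vehicle and IFN-β, −0.41 in NCI-H196 and −0.84 in HCC366. The difference passed the threshold, an adjusted p under 0.05 by the quasi-likelihood test of edgeR, in each except HCC366 (adjusted p = 0.208). A gene can be cut without a fall in its mRNA, so this check is a partial one. The 8 leukocyte markers, looked at because white blood cells are rich in *REL* and *RELB* mRNA, summed to at most 11.3 CPM (reads for each 1000000 reads on genes, after scaling) in any library. The 5 epithelial markers summed to at least 1629 CPM in HCC366, NCI-H1650 and A549, and to between 41.8 and 63.6 CPM in NCI-H196, where the 5 mesenchymal markers summed to at least 3891 CPM.

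In the GRCh37 build, *NFKB1* (ENSG00000109320) lies on the plus strand of chromosome 4 from 103422487 to 103538459 and its canonical transcript has 24 exons. *NFKB2* (ENSG00000077150) spans 104153867 to 104162281 of chromosome 10 (plus strand, 23 exons). *REL* (ENSG00000162924) spans 61108626 to 61158747 of chromosome 2 (plus strand, 10 exons). *RELA* (ENSG00000173039) is on the minus strand of chromosome 11 from 65421070 to 65430561 with 11 exons, and *RELB* (ENSG00000104856) on the plus strand of chromosome 19 from 45504719 to 45541450 with 12 exons. An exon of *RELA* overlaps an antisense RNA, *RELA-DT*, whose identifier was not analysed here, and a long non-coding RNA that shares exonic sequence with *REL* had no read in any library.

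The promoters were searched because 4 of the subunit genes were called together in A549 cells below. The RefSeq table of windows, which run from 250 bases before to 50 bases after a start site, held 8 windows of 4 members and none of *RELB*, and each window was placed on GRCh37 by exact match. Matches to the κB consensus, a degenerate motif of 10 letters searched on both strands, are shown with their surroundings as 30 bases on the plus strand, with the match in capitals. Where matches on both strands overlap, the capitals cover both.

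NFKB1, chr4:103422457-103422486: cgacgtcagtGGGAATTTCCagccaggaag
NFKB2 start 2, chr10:104154219-104154248: aaacgtcatGGGAATTCCCCcctccggggg
NFKB2 start 2, chr10:104154247-104154276: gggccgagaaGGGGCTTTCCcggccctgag
NFKB2 start 3, chr10:104155276-104155305: aacccccaccGGGGCTTCCCggattctcct
NFKB2 start 3, chr10:104155431-104155460: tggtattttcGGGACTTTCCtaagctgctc
REL, chr2:61108653-61108682: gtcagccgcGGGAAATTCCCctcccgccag

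The match lay 49 bases before the first *NFKB1* start, 47 bases before the *REL* start and between 21 and 176 bases before *NFKB2* starts 2 and 3. The stretches at *NFKB2* start 2 and at the *REL* start lie within exons of other transcripts of the same genes, and so do 11 bases of the last stretch of *NFKB2*. No match was found in the first *NFKB2* window, the second *NFKB1* window or either *RELA* window. Among all 35116 windows of the table, 5.91% held a match. The core of the interferon-stimulated response element, which is GAAA, any 2 bases and GAAA, was in 3.57% of all windows, and the GAS motif, which is TTC, any 3 bases and GAA, in 7.66%. Each matched once among the members' windows, both times in the first *RELA* window. A match is a description of the letters and not evidence that a factor binds there.

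Levels before any *ADAR* loss were compared in the *GFP* libraries without IFN-β, scaled over all 20 libraries by the TMM method. HCC366 had the most mRNA of every subunit by group mean, and A549 the least *NFKB1*, *REL* and *RELB*. Against A549, all 5 subunits were higher in HCC366 and passed the threshold, in a comparison where 50.8% of genes did, with log2 differences from 0.78 (*REL*) to 1.50 (*NFKB1*, SE 0.19). *NFKB1* went from 58.5 ± 2.08 CPM in A549 (SD, n = 2 sgRNAs) through 70.7 ± 1.77 in NCI-H1650 and 96.2 ± 47.3 in NCI-H196 to 166 ± 17.9 in HCC366. NCI-H1650 did not pass the threshold against A549 for *NFKB1* (log2 difference 0.27, adjusted p = 0.234), and neither did NCI-H196 against HCC366 (−0.45, adjusted p = 0.0882). A fit of the 8 *GFP* libraries without IFN-β alone called both (adjusted p = 0.0368 and 0.01, edgeR). *RELB* had 46.0 ± 1.65 CPM in A549, 56.3 ± 5.65 in NCI-H196, 77.6 ± 17.1 in NCI-H1650 and 115 ± 9.75 in HCC366. A549 and NCI-H196 as well as NCI-H196 and NCI-H1650 were neighbours that did not differ for *RELB* at the threshold (adjusted p = 0.175 and 0.202), though both pairs passed it in the fit of 8 libraries (adjusted p = 0.00901 and 0.0372, edgeR). *RELA*, the canonical transactivator, was within a log2 difference of 0.43 of A549 in both NCI-H1650 (−0.43, adjusted p = 0.0686) and NCI-H196 (−0.41, adjusted p = 0.129), whereas HCC366 was higher than each of the other lines. In the fit of 8 libraries *RELA* passed the threshold for NCI-H1650 against A549 (−0.40, adjusted p = 0.0036, edgeR), as did all 5 subunits in that pair. The share of all genes called in the fit of 8 libraries is not given here, and the fit of 20 libraries called 53.8% of genes in this pair. The 6 pairs of lines called between 1 subunit (NCI-H196 against A549) and 5 subunits (HCC366 against A549), beside 41% to 57.8% of all genes, so calls between lines were common among genes of any kind. NCI-H1650 and A549 differed in 2 subunits (53.8% of genes called), NCI-H196 and A549 in 1 (57.8%), NCI-H1650 and HCC366 in 4 (41%), NCI-H196 and HCC366 in 4 (43.2%), and NCI-H196 and NCI-H1650 in 2 (46.7%). Line and handling cannot be told apart here, since A549 received vehicle and the other lines did not.

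Per kilobase of the canonical transcript, *NFKB2* had the highest level in each line, from 38.4 ± 15.1 CPM per kb in NCI-H196 to 109 ± 7.44 in HCC366 (SD, n = 2 sgRNAs). *REL* was the lowest in each, between 1.63 ± 0.0704 (A549) and 2.76 ± 0.259 (HCC366) CPM per kb. Its canonical transcript, with 11108 bases, is the longest of the members, and transcripts of other lengths would raise its value. *RELA* had 44.7 ± 1.37 CPM per kb in A549, close to *NFKB2* there (49.4 ± 4.60), and 33.1 ± 2.49 in NCI-H1650, beside 34.4 ± 7.59 for *RELB*.

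**Figure D1:**
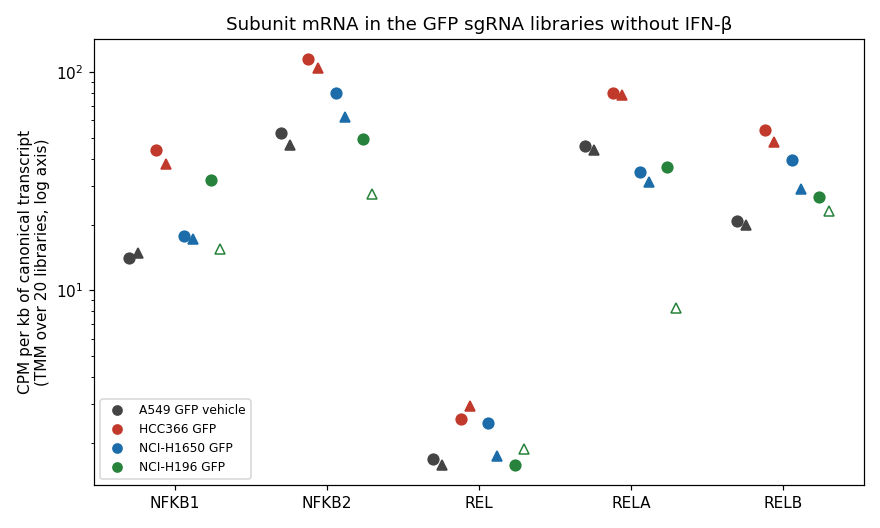
Level of each subunit in CPM per kb of its canonical transcript (vertical log axis, TMM over the 20 libraries) in the GFP sgRNA libraries without IFN-β, with a circle for sg1 and a triangle for sg2, and an open triangle for the NCI-H196 library with 62679 reads. Both HCC366 libraries lie above those of the other lines for every subunit. NFKB2 is the highest subunit and REL the lowest in each line by group mean.

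In NCI-H1650 cells, *ADAR* KO raised *RELB*, *NFKB2* and *NFKB1*. Levels from here on are CPM scaled by TMM within a line. *RELB* had 100.3 and 74.8 CPM in the *GFP* libraries (sg1 and sg2) and 175 and 187 CPM in the *ADAR* libraries. The log2 fold change was 1.04 (SE 0.12, adjusted p = 1.14e-09, edgeR quasi-likelihood test), or 2.06-fold. *NFKB2*, the precursor of the partner of RelB, had 271 and 213 CPM with *GFP* and 475 and 499 CPM with *ADAR* sgRNAs, a log2 fold change of 1.01 (SE 0.11, adjusted p = 2.55e-10). *NFKB1* had 80.5 and 79.3 CPM with *GFP* and 134 and 145 CPM with *ADAR* sgRNAs, a log2 fold change of 0.81 (SE 0.11, adjusted p = 3.34e-07). The 2 groups did not overlap for these genes, as for 26.2% of all genes in this direction, and the *ADAR* libraries lay closer to each other than the *GFP* libraries for *RELB* and *NFKB2*. *REL* had 30.7 and 22.0 CPM with *GFP* and 29.0 and 42.3 CPM with *ADAR* sgRNAs, so the groups overlapped (log2 fold change 0.42, SE 0.17, adjusted p = 0.118). *RELA* had 98.1 and 90.0 CPM with *GFP* and 121 and 112 CPM with *ADAR* sgRNAs. Its groups did not overlap, but the log2 fold change of 0.31 (SE 0.11) missed the threshold (adjusted p = 0.0753). In all, 3 of 5 subunits rose, where 6.18% of 14530 genes tested did. In these bulk libraries, more cells with a transcript and more of it per cell cannot be told apart. *REL* passed the threshold when GC content and length entered as offsets (0.53, adjusted p = 0.0251, edgeR) and without GFP sg1 (0.69) or ADAR sg1 (0.67).

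In NCI-H196 cells, 4 of 5 subunits rose with *ADAR* KO, beside 10.3% of all genes tested, and the comparison rests on a single deep control library. *RELB* had 69.3 CPM (621 reads) and 73.3 CPM (5 reads) in the *GFP* libraries and 166 and 184 CPM in the *ADAR* libraries, a log2 fold change of 1.38 (SE 0.11, adjusted p = 2.61e-31, edgeR). *NFKB2* went from 170 and 117 CPM to 399 and 387 CPM (1.22, SE 0.11). *NFKB1* went from 149 and 88.0 CPM to 266 and 298 CPM (0.97, SE 0.11). Every *ADAR* library lay above both *GFP* libraries for these 3 genes and also for *REL* and *RELA*, as for 25.6% of all genes. *REL* had 20.2 CPM (181 reads) and 29.3 CPM (2 reads) with *GFP* and 49.7 and 30.5 CPM with *ADAR* sgRNAs, a log2 fold change of 0.73 (SE 0.18, adjusted p = 0.00103). *RELA* had 106 CPM (952 reads) and 29.3 CPM (2 reads) with *GFP* and 111 and 129 CPM with *ADAR* sgRNAs, a log2 fold change of 0.26 (SE 0.11, adjusted p = 0.0828). Against the deep *GFP* library alone, the log2 fold changes were 0.94 (*NFKB1*), 1.19 (*NFKB2*), 0.73 (*REL*), 0.23 (*RELA*) and 1.37 (*RELB*). DESeq2's Wald test on all 4 libraries called only *NFKB2* (1.31, adjusted p = 0.0345), gave *REL* no adjusted p, and called 11 genes in all, against 2513 by edgeR. Against the shallow *GFP* library alone, 1 subunit (*NFKB2*, 1.75) was called. The log2 fold changes there were 1.72 for *NFKB1* (SE 0.46), 1.31 for *RELB* (SE 0.55), 0.21 for *REL* (SE 1.03) and 2.10 for *RELA* (SE 0.79), so that *RELA* was no longer among the smallest. Without ADAR sg2, *NFKB1* lost its call (0.93, adjusted p = 0.179, edgeR).

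In HCC366 cells, no subunit passed the threshold by edgeR (0 of 5, with 1.25% of all genes called), although 3 of 5 had an unadjusted p under 0.05, beside 2014 of 11135 genes, and DESeq2 called 2 of 5, beside 308 genes. *NFKB2* had 374 and 335 CPM with *GFP*, and 740 and 1549 CPM with *ADAR* sgRNAs. Both *ADAR* libraries lay above both *GFP* libraries, as for 25.1% of all genes, and differed from each other by more than the groups' nearest members did. The log2 fold change was 1.69 (SE 0.39, adjusted p = 0.0834, edgeR; 0.00333 by DESeq2). *RELB* had 132 and 116 CPM with *GFP* and 252 and 455 CPM with *ADAR* sgRNAs (1.51, SE 0.37, adjusted p = 0.0964, edgeR; 0.0125 by DESeq2). *NFKB1* had 194 and 164 CPM with *GFP* and 351 and 376 CPM with *ADAR* sgRNAs (1.03, SE 0.31, adjusted p = 0.152, edgeR). *RELA* had 218 and 211 CPM with *GFP* and 268 and 412 CPM with *ADAR* sgRNAs (0.66, SE 0.33, adjusted p = 0.322), and *REL* had 31.0 and 35.0 CPM with *GFP* and 38.5 and 29.1 CPM with *ADAR* sgRNAs (0.02, SE 0.36, adjusted p = 0.982). The high *NFKB2*, *RELB* and *RELA* values and the low *REL* value came from ADAR sg2, the library with 85.6% non-unique alignments. In that library the smooth of GC content and length gave 0.70 for *NFKB2*, 0.83 for *RELB*, 0.59 for *RELA*, 0.20 for *NFKB1* and −0.72 for *REL* on the log2 scale. When the fit took GC content and length into account as offsets, the log2 fold changes were 1.07 for *NFKB2* (adjusted p = 0.00649), 0.83 for *RELB* (0.0234), 0.82 for *NFKB1* (0.0213), 0.68 for *REL* (0.105) and 0.16 for *RELA* (0.594, edgeR). With these offsets 3 of 5 subunits rose, and 1037 genes of any kind were called, against 139 genes without them. Without ADAR sg2, the log2 fold changes were 1.08 for *NFKB2*, 1.05 for *RELB*, 1.00 for *NFKB1*, 0.34 for *RELA* and 0.22 for *REL*.

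**Figure D2:**
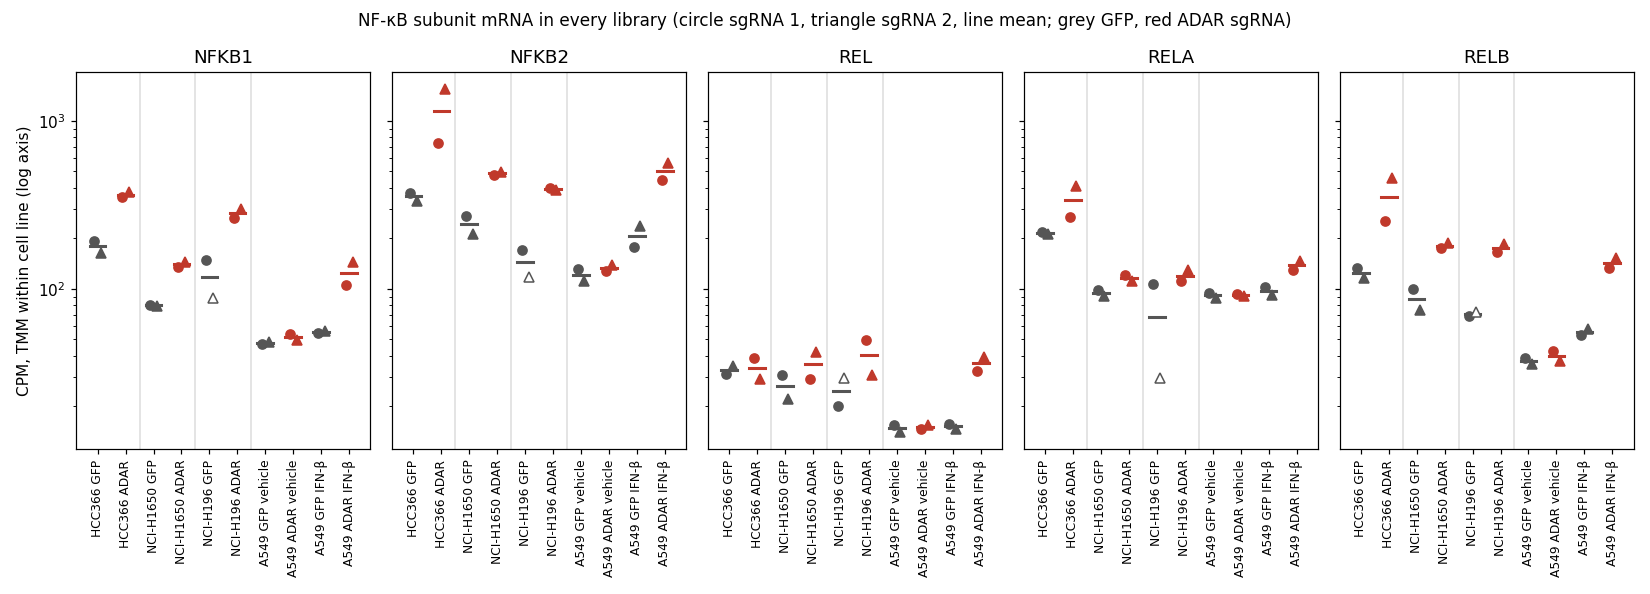
CPM of each subunit (vertical log axis, TMM within the cell line) in each of the 20 libraries, with a circle for sg1, a triangle for sg2, a line for the mean of the 2 libraries, grey for GFP and red for ADAR sgRNAs; the open triangle is the NCI-H196 library with 62679 reads. NFKB1, NFKB2 and RELB lie higher in the ADAR libraries of the 3 untreated lines and in A549 with IFN-β. In A549 with vehicle the log2 fold changes of these 3 are at most 0.14, and both ADAR libraries lie above both GFP libraries for NFKB1 but not for NFKB2 or RELB.

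In A549 cells with vehicle, no subunit was called after *ADAR* KO (0 of 5, with 0.123% of all genes called). No unadjusted p was under 0.05, DESeq2 called 0 of 5, and the edgeR log2 fold changes lay between 0.02 (*RELA*, SE 0.11) and 0.14 (*NFKB2*, SE 0.13). *NFKB2*, for instance, had 131 and 111 CPM with *GFP* and 127 and 140 CPM with *ADAR* sgRNAs, and *RELB* had 38.9 and 35.9 CPM with *GFP* and 42.4 and 37.0 CPM with *ADAR* sgRNAs, so their groups overlapped. *NFKB1* had 47.1 and 48.0 CPM with *GFP* and 53.8 and 49.3 CPM with *ADAR* sgRNAs, higher without overlap, as were 18.8% of all genes (log2 fold change 0.11, SE 0.13). *ADAR* mRNA was lower in the same libraries (log2 fold change −1.08, adjusted p = 9.98e-05, edgeR).

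With IFN-β, *ADAR* KO raised all 5 subunits in A549 cells, where 10.8% of all genes rose. *RELB* had 52.8 and 57.9 CPM with *GFP* and 133 and 152 CPM with *ADAR* sgRNAs (log2 fold change 1.36, SE 0.12, adjusted p = 4.25e-10, edgeR). *NFKB2* had 177 and 238 CPM with *GFP* and 442 and 565 CPM with *ADAR* sgRNAs (1.28, SE 0.12). *REL*, the subunit with the lowest counts, had 15.8 and 14.7 CPM with *GFP* and 32.4 and 39.5 CPM with *ADAR* sgRNAs (1.25, SE 0.16, adjusted p = 1.76e-06, edgeR). *NFKB1* had 54.3 and 56.1 CPM with *GFP* and 106 and 144 CPM with *ADAR* sgRNAs (1.18, SE 0.13). *RELA* had 103 and 91.5 CPM with *GFP* and 130 and 146 CPM with *ADAR* sgRNAs, and its log2 fold change of 0.51 (SE 0.11, adjusted p = 0.00102, edgeR) was the smallest of the 5. The *RELA* call was lost without ADAR sg2 with IFN-β (0.42, adjusted p = 0.059, edgeR) and in a fit of all 20 libraries (0.47, adjusted p = 0.169). For each subunit both *ADAR* libraries lay above both *GFP* libraries, as for 28.2% of all genes, and ADAR sg2 lay above ADAR sg1.

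The interaction term asks whether the effect of *ADAR* KO differed between IFN-β and vehicle. It was called for 4 of 5 subunits, beside 4.07% of all genes called in the same direction, with 1.27 for *RELB* (SE 0.17, adjusted p = 1e-05, edgeR), 1.22 for *REL* (SE 0.25), 1.14 for *NFKB2* (SE 0.18) and 1.07 for *NFKB1* (SE 0.18) on the log2 scale. *RELA* missed the threshold (0.49, SE 0.15, adjusted p = 0.0561), and passed it by DESeq2 (0.50, adjusted p = 0.043) and without GFP sg1 or ADAR sg1 with IFN-β (0.58 each). With all 20 libraries in 1 fit, 1 subunit, *RELB*, was called.

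IFN-β alone, in A549 cells with *GFP* sgRNAs, raised the non-canonical pair. *NFKB2* went from 131 and 111 CPM with vehicle to 177 and 238 CPM (log2 fold change 0.78, SE 0.13, adjusted p = 3.98e-05, edgeR), and *RELB* from 38.9 and 35.9 CPM to 52.8 and 57.9 CPM (0.57, SE 0.12, adjusted p = 0.00207, edgeR). The log2 fold changes of *NFKB1* (0.21, SE 0.13), *RELA* (0.09, SE 0.11) and *REL* (0.05, SE 0.18) did not pass the threshold. These 2 of 5 subunits compare with 4.39% of all genes that rose. A fit of all 20 libraries called 0 of 5 (adjusted p = 0.0656 for *NFKB2* and 0.22 for *RELB*, edgeR), and without GFP sg2 with vehicle *RELB* lost its call (0.51, adjusted p = 0.11). In *ADAR* KO cells, IFN-β raised all 5, where 15.5% of all genes rose, with log2 fold changes of 1.92 for *NFKB2* (SE 0.13), 1.85 for *RELB* (SE 0.12), 1.28 for *NFKB1* (SE 0.13), 1.27 for *REL* (SE 0.17) and 0.59 for *RELA* (SE 0.11). The comparisons within A549 share their libraries and are not independent of each other.

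**Figure D3:**
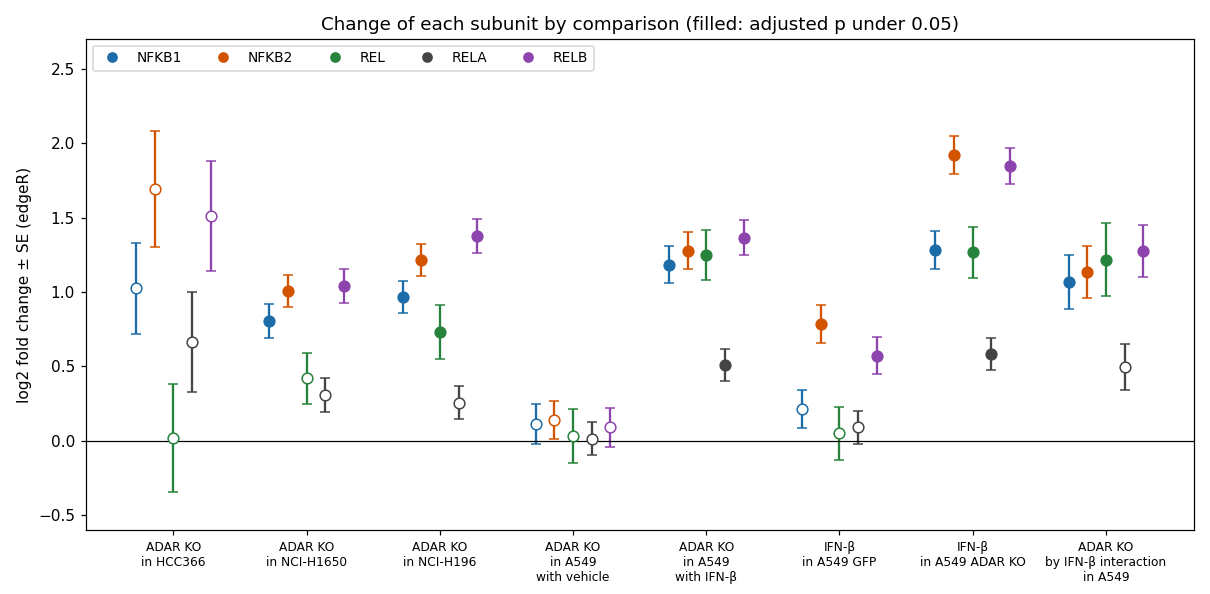
Log2 fold change with its SE (vertical axis, edgeR) of the 5 subunits in the 8 comparisons, filled where the adjusted p is under 0.05. RELA has the smallest value of the 5 in NCI-H1650, NCI-H196 and, in A549, for ADAR KO with IFN-β and for IFN-β in ADAR KO cells, and the values of A549 with vehicle lie between 0.02 and 0.14.

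Each other subunit was set against *RELA* within each library, as log2 of the ratio of their CPM with a prior count of 2. The mean of the 3 untreated lines' differences, *ADAR* minus *GFP*, was tested two-sided by exact permutation of sgRNA targets inside each line (216 assignments, with no adjustment over the 4 ratios tested). This comparison was chosen with earlier results of these libraries known and uses the same libraries as the fold changes above, so its p values are not independent support for them. The ratio of *NFKB2* to *RELA* rose by 0.68 (exact p = 0.0278), being 0.97 for HCC366, 0.71 for NCI-H1650 and 0.38 for NCI-H196. For HCC366 it was 0.77 and 0.67 with *GFP* and 1.46 and 1.91 with *ADAR* sgRNAs, and in NCI-H1650 1.46 and 1.24 with *GFP* and 1.96 and 2.15 with *ADAR* sgRNAs, so the groups did not overlap in either line. In NCI-H196 it was 0.68 and 1.98 with *GFP* and 1.85 and 1.58 with *ADAR* sgRNAs, so the groups overlapped. How many other genes would separate in this way relative to *RELA* was not counted. *RELB* (difference 0.59, exact p = 0.102), *NFKB1* (0.36, exact p = 0.0741) and *REL* (−0.30, exact p = 0.528) did not pass the threshold. All of these include the NCI-H196 GFP library in which *RELA* had 2 reads, where the ratio of *RELB* to *RELA* was 1.31 on the log2 scale against −0.61 in the other *GFP* library of the line. Without it, the differences were 0.91 for *RELB*, 0.90 for *NFKB2* and 0.55 for *NFKB1*, each with an exact p of 0.00926, the smallest that the design allows, and 0.09 for *REL* (exact p = 0.796). *NFKB2* lost its call when labels were permuted within same-numbered pairs (exact p = 0.0625). Without NCI-H196 GFP sg1, NCI-H196 ADAR sg1 or NCI-H196 ADAR sg2, exact p was 0.0648, 0.0833 and 0.0556.

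The ratios to *RELA* in A549 with IFN-β moved by 0.85 for *RELB*, 0.78 for *NFKB2*, 0.72 for *REL* and 0.65 for *NFKB1* after *ADAR* KO. With vehicle the same differences lay between 0.01 (*REL*) and 0.12 (*NFKB2*). The exact permutation of these ratios cannot pass the threshold in a single line, since 2 libraries against 2 allow no p below 0.333.

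**Figure D4:**
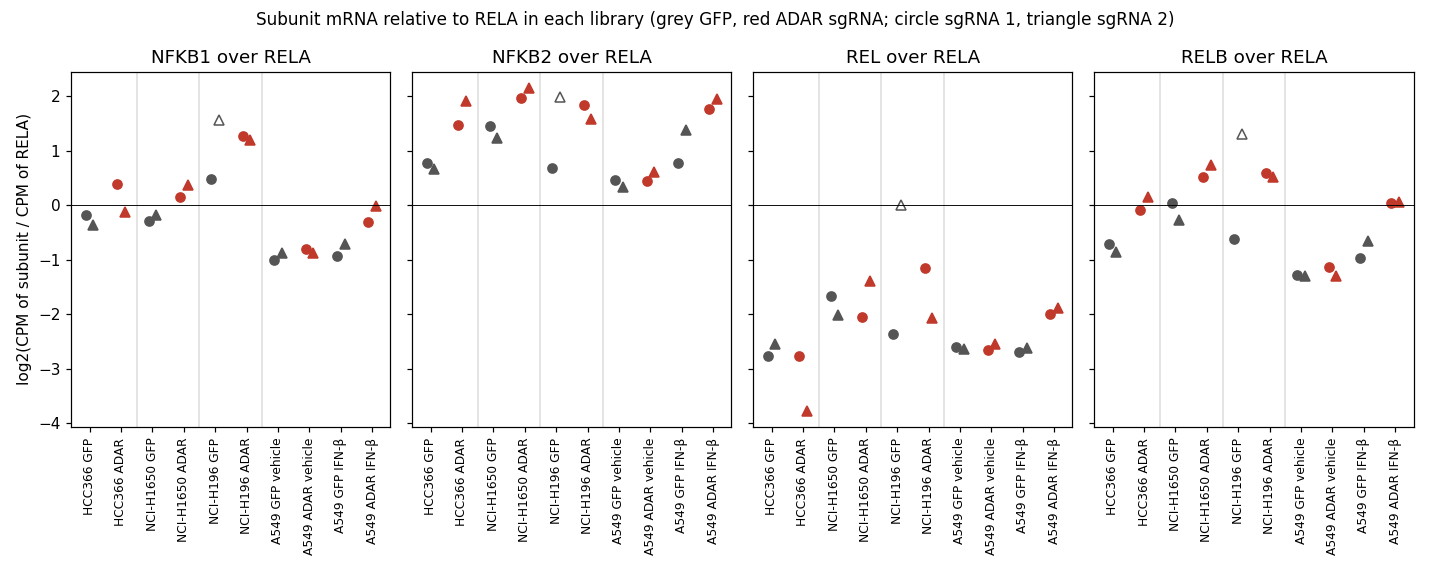
Log2 of the ratio of each subunit's CPM to that of RELA (vertical axis) in each library, grey for GFP and red for ADAR sgRNAs, with a circle for sg1 and a triangle for sg2. The open triangle, NCI-H196 GFP sg2 with 2 RELA reads, lies above the ADAR libraries of its line in every panel, while in HCC366, NCI-H1650 and A549 with IFN-β the red points of the NFKB2 and RELB ratios lie above the grey ones.

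Other genes of the pathway were described from lists of 47 further matched genes, one of the listed targets having no matched identifier. Of 6 IκB genes, 5 rose in NCI-H1650, 6 in NCI-H196, 5 in A549 with IFN-β and 0 in HCC366 or in A549 with vehicle after *ADAR* KO (edgeR; 3 in HCC366 and 1 in A549 with vehicle had an unadjusted p under 0.05, and DESeq2 called 1 and 0). By DESeq2 the counts were 5 for A549 with IFN-β, 3 for NCI-H1650 and 2 for NCI-H196. The median log2 fold change in A549 with IFN-β was 0.88, beside −0.01 over all genes. There, *NFKBIE*, which encodes IκBε, went from 26.3 ± 7.08 to 106 ± 19.4 CPM (SD, n = 2 sgRNAs; log2 fold change 2.01, SE 0.15), and *NFKBIA*, which encodes IκBα, from 107 ± 12.6 to 251 ± 34.5 CPM (1.23, SE 0.11). *NFKBIZ* (1.88), an atypical nuclear member, *BCL3* (0.53), a partner of p50 and p52, and *NFKBIB* (0.53) also rose there and in NCI-H1650 and NCI-H196.

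Of 10 kinases and kinase adaptors, 2 rose in NCI-H1650, 3 in NCI-H196, 5 in A549 with IFN-β, and 0 in HCC366 and in A549 with vehicle (edgeR). An unadjusted p under 0.05 was found for 1 in HCC366, *TAB3*, which fell (log2 fold change −1.38), and for 0 in A549 with vehicle (edgeR). DESeq2 called 0 in HCC366 and in A549 with vehicle. The genes that rose were 6.18%, 10.3% and 10.8% of all genes in NCI-H1650, NCI-H196 and A549 with IFN-β. DESeq2 called 2 kinases in NCI-H1650, 0 in NCI-H196, where edgeR gave 4 at an unadjusted p under 0.05, and 5 in A549 with IFN-β. *IKBKE* rose by 1.27 in A549 with IFN-β, 1.12 in NCI-H196 and 1.04 in NCI-H1650 on the log2 scale, and *MAP3K14*, which encodes the NIK kinase of the non-canonical branch, by 0.69, 0.58 and 0.90 in the same order. *TAB2*, an adaptor of the TAK1 kinase, rose by 0.31 in NCI-H196 and 0.97 in A549 with IFN-β. Of the 12 adaptors and ubiquitin ligases, 2 rose in NCI-H1650, 5 rose and 1 fell in NCI-H196, 6 rose in A549 with IFN-β, 1 of 11 tested rose in HCC366, and 0 changed in A549 with vehicle (edgeR; 0 at an unadjusted p under 0.05, and 0 called by DESeq2). DESeq2 called 1 adaptor in NCI-H1650, 0 in NCI-H196, 5 in A549 with IFN-β and 1 in HCC366. In NCI-H196, edgeR gave 8 at an unadjusted p under 0.05, among them *TRAF5*, which fell (−0.43). *TRAF1*, an adaptor of TNF receptors, rose in every setting but A549 with vehicle, by 1.54 (NCI-H1650), 1.85 (NCI-H196) and 2.73 (HCC366, adjusted p = 0.0273, edgeR). It rose by 3.10 in A549 with IFN-β, where it went from 30.6 ± 0.140 to 261 ± 76.8 CPM (SD, n = 2 sgRNAs). *BIRC3*, which encodes the ligase cIAP2, rose by 1.70 in A549 with IFN-β, 1.08 in NCI-H196 and 0.90 in NCI-H1650, and *BIRC2* by 1.00 in the first of these.

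Among well-known target genes of the pathway, 6 of 17 tested rose in HCC366, 10 of 12 in NCI-H1650 and 18 of 18 in NCI-H196 (edgeR). For A549, 15 of 16 rose with IFN-β and 0 of 16 with vehicle (edgeR). Under vehicle, 2 had an unadjusted p under 0.05, and both fell, *CCL2* (log2 fold change −0.55) and *PTGS2* (−1.18, edgeR). DESeq2 called 0 under vehicle. By DESeq2 the counts were 12 for A549 with IFN-β, 10 for HCC366, 7 for NCI-H1650 and 2 for NCI-H196. *TNFAIP3*, which encodes the A20 inhibitor, rose in HCC366, NCI-H1650, NCI-H196 and A549 with IFN-β, by 1.99, 1.73, 1.75 and 3.07 on the log2 scale. The chemokine genes *CXCL8* (2.88, 1.78, 1.38 and 4.69), *CXCL1* (1.94, 2.01, 3.53 and 1.60) and *CXCL2* (3.03, 2.05, 1.95 and 1.36) rose in the same settings. *CXCL3*, *IL6*, *ICAM1*, *TNFAIP2* and *TNIP1* rose in NCI-H1650, NCI-H196 and A549 with IFN-β. *CXCL8* in A549 was 5.34 ± 0.0036 CPM with *GFP* and 138 ± 60.3 CPM with *ADAR* sgRNAs under IFN-β (SD, n = 2 sgRNAs), and 5.23 ± 2.18 and 4.84 ± 1.50 CPM with vehicle. The large fold changes of *CSF2* (4.18) and *IL1A* (3.49) in A549 with IFN-β came from low levels, 0.140 ± 0.0654 and 0.437 ± 0.178 CPM with *GFP* and 2.80 ± 1.13 and 4.82 ± 0.770 CPM with *ADAR* sgRNAs. The lists were chosen with earlier results of these data known, so these counts are a description.

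**Figure D5:**
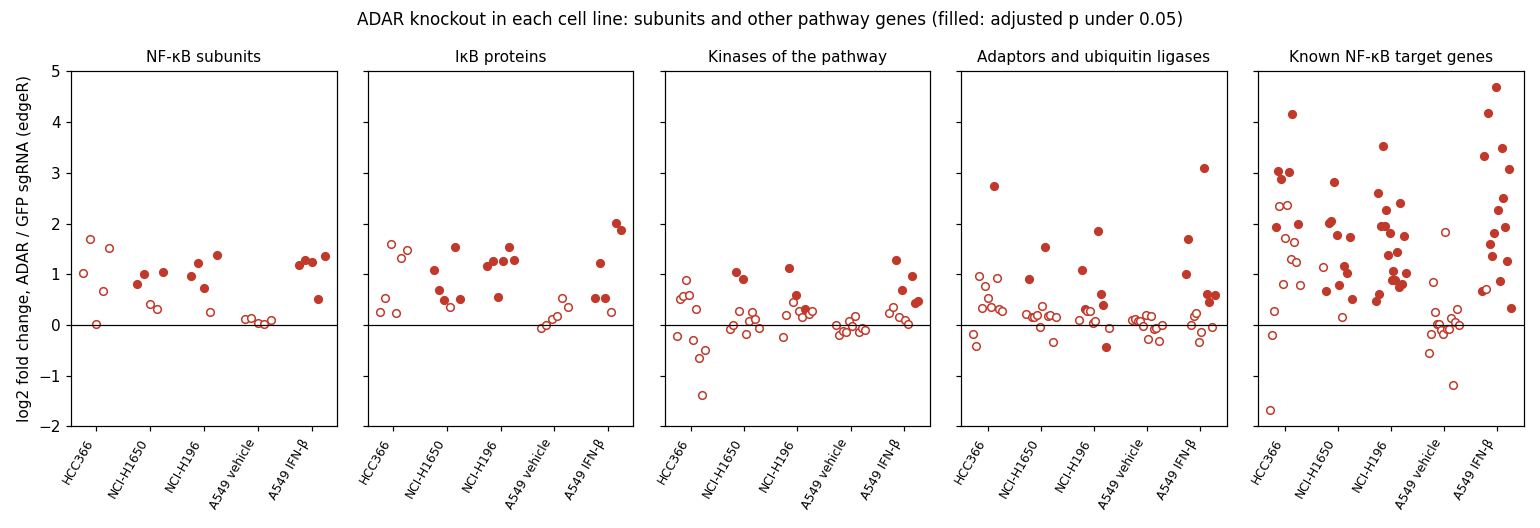
Log2 fold change of ADAR against GFP sgRNAs (vertical axis, edgeR) for the 5 subunits and for each tested gene of the 4 other lists, in the 3 untreated lines and in A549 with vehicle or IFN-β, filled where the adjusted p is under 0.05. All filled points of the subunits and of the IκB genes lie above 0, and no gene of any panel is filled in A549 with vehicle.

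How alike the members moved was described over 19 libraries, leaving out the shallowest, as Pearson's r of log2 CPM minus the mean of the *GFP* libraries of the line (with vehicle in A549). The points share lines and control libraries, so no p is given. *NFKB2* and *RELB*, whose proteins pair, were the closest of the 10 pairs of members (r = 0.985), and *NFKB1* was close to both (0.969 with *RELB* and 0.942 with *NFKB2*). *RELA* reached 0.889 with *NFKB2*, 0.876 with *RELB* and 0.838 with *NFKB1*, and *REL* and *RELA* were the least alike (0.381). Among 10240 genes, the 3 most like *RELB* were *IRAK2* (0.985), *NFKB2* and *NFKB1*. Those most like *NFKB2* were *RELB*, *AMOTL2* (0.979) and *IRAK2* (0.978), an adaptor kinase of the interleukin-1 receptor. *NFKB1* was most like *HIVEP2* (0.977), *SAT1* (0.972) and *PER1* (0.970). *REL* had its highest values with *RNF169* (0.936), *GPATCH8* (0.929) and *ZNF267* (0.929), and *RELA* with *RANBP10* (0.951), *JUN* (0.951) and *ZNF557* (0.949).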

How the data were processed

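After depletion of ribosomal RNA and directional library preparation, the authors used STAR for alignment of the read pairs (hg19) and HTSeq for counting (versions not given in the sources used here). The deposited values are raw counts per Ensembl gene, without normalization. Overlapping genes and the setting for strand are not described there, and non-unique alignments were not counted on genes, so reads shared with near copies are lost. Symbols matched 55727 of 58233 identifiers, with 97.4% of the counts.

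Counts were analysed with edgeR 4.0.16 (R 4.3.3): TMM scaling, filterByExpr by condition, quasi-likelihood F-test, and Benjamini-Hochberg adjustment over all genes tested, with a threshold of 0.05. Each line had its own fit, with 4 groups in A549, and basal levels came from a fit of all 20 libraries. SEs are the log2 fold change divided by the square root of F. The edgeR steps were also run on simulated counts with the same spread in every library and no effect of GC content. The outcome of that run is not given here. DESeq2 1.42.0, other scaling and filters, all libraries in 1 fit, a replicate block, offsets for GC content and length (mgcv 1.9.3) and leaving out each library were the alternatives. Positions came from GENCODE mapped to GRCh37, and promoter windows from RefSeq, which need not be the release used for counting.

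The members and lists were chosen with earlier results of these data known. Genes named from a list were the 3 with the largest called change after *ADAR* KO in A549 with IFN-β, and those called in at least 3 of the 5 *ADAR* KO comparisons. The listed target *SOD2* was not analysed here. sgRNA numbers name different guides for *GFP* and *ADAR*, and the deviations of same-numbered libraries correlated between −0.253 and −0.00477, so the numbers were not taken to pair the samples.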

Additional observations from a re-analysis of the deposited data

Results flagged for a closer look

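The effect of *ADAR* KO differed between IFN-β and vehicle in A549 cells for 4 subunits, by a test of the difference itself (edgeR interaction term). The log2 fold change was larger with IFN-β by 1.07 for *NFKB1*, 1.14 for *NFKB2*, 1.22 for *REL* and 1.27 for *RELB*. With 2 libraries in each condition, no group was large enough for a search for single outlying libraries.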

How the results depend on the processing

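The result that leaned most on processing was HCC366, where 0 subunits and 139 genes were called by edgeR. DESeq2 called 2 subunits and 308 genes there, a fit with no filter on low counts 2 and 903, a replicate block by sgRNA number 1 and 300, offsets for GC content and length 3 and 1037, the block with the offsets 3 and 1684, a block with crossed numbers (chosen after seeing the data) 2 and 960, and all 20 libraries in 1 fit 4 and 3701. Leaving out each library gave 0 to 4 subunits and 9 to 6408 genes. The log2 fold change of *REL* in HCC366 turned from 0.02 to −0.0054 by DESeq2, −0.044 with no filter and −0.043 with all 20 libraries, and ranged from −0.22 to 0.22 without a library. The smooth behind the offsets was limited to genes expected at 5 or more reads in a library after a first version had been seen to shift the shallowest library as a whole.

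In NCI-H1650, 1250 genes were called, with 389 by DESeq2, 159 with all 20 libraries and 542 to 1110 without a library. In NCI-H196, 2513 genes and 4 subunits were called, with 11 genes and 1 subunit by DESeq2, 1552 genes with no filter, 115 with the replicate block, 94 with the block and offsets, 98 with all 20 libraries, and 41 to 3041 genes and 1 to 4 subunits without a library. In A549 with vehicle, 19 genes were called, with 4 by DESeq2, 30 with no filter, 5 with all 20 libraries and 3 to 17 without a library, where the log2 fold change ranged from −0.039 to 0.088 for *REL*, −0.037 to 0.064 for *RELA* and −0.0064 to 0.19 for *RELB*. With IFN-β, 2622 genes were called, 1087 with all 20 libraries and 689 to 3581 without a library. IFN-β in *GFP* cells gave 880 genes, 531 with all 20 libraries (0 subunits) and 517 to 1245 without a library (1 to 2 subunits), where *REL* ranged from −0.019 to 0.11. IFN-β in *ADAR* KO cells gave 3788 genes, 2067 with all 20 libraries and 1774 to 3496 without a library. The interaction gave 780 genes, 164 with all 20 libraries (1 subunit) and 253 to 1663 without a library.

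Between lines, NCI-H1650 and A549 differed in 1 subunit with no filter and 5 in a fit of the 8 *GFP* libraries, NCI-H196 and A549 in 2 in that fit (*REL* 0.0080), and NCI-H1650 and HCC366 in 2 with no filter. The shares of all genes called in these alternative fits are not given here. NCI-H196 and HCC366 differed in 5397 genes by DESeq2. NCI-H196 and NCI-H1650 differed in 5472 genes and 1 subunit by DESeq2, and in 1 subunit with no filter or without NCI-H196 GFP sg2, and *RELA* turned to −0.17 by DESeq2 and −0.093 with its size factors. The ratio of *NFKB2* to *RELA*, 0.68 also under the replicate block (exact p = 0.0625), ranged from 0.47 to 0.90 without a library, that of *NFKB1* from 0.18 to 0.55, *RELB* from 0.27 to 0.91 and *REL* from −0.70 to 0.092. The cause of these changes was not tested. With 2 sgRNAs a condition and 2 to 8 reads per subunit in the shallowest library, basal differences that rest on NCI-H196 are limited by depth.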
